A study of Mus musculus with 141 samples.

Results

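*Nnt* (nicotinamide nucleotide transhydrogenase) is 1 gene of the 36557 measured here in inguinal white adipose tissue (iWAT, the main subcutaneous fat pad of the mouse), once the 2 annotated gene rows that carry its symbol were summed. It was chosen by its symbol, because C57BL/6J, a parent of most recombinant strains in the panel, is known to carry a deletion in it. The data are RNA-seq libraries, 67 from females and 74 from males, of 82 inbred strains of the Hybrid Mouse Diversity Panel. The mice ate chow and then an HF/HS diet, high in fat and sucrose, for 8 weeks, and tissue was taken after a 4 h fast. All strains received this diet, and the labels name no engineered allele and no other treatment. BXD24/TyJ-Cep290<rd16>/J, a BXD strain, carries the named *Cep290* mutation.

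The strains fall into 5 recombinant families and a set of inbred strains. Recombinant inbred strains descend from a cross of 2 parents by repeated brother-sister mating, so that each strain is a fixed mosaic of both. The 40 BXD strains come from C57BL/6J and DBA/2J, in a set of 24 with the suffix RwwJ and a set of 16 with the suffix TyJ. The 11 AXB and BXA strains come from A/J and C57BL/6J, the 4 BXH strains from C57BL/6J and C3H/HeJ, and the 3 CXB strains from BALB/c and a C57BL/6 substrain. The other 24 are inbred strains, among them C57BL/6J and its relative C57BLKS/J, and the remaining 22 are called reference inbred strains below. In 59 strains there is 1 female and 1 male library, 8 strains have a female and 15 a male library alone. Labels give no genotype at the deletion, so no strain was assigned to an allele. With 1 library per strain and sex, strains are the replicates of a family, and the spread within a strain and sex was not measured.

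The transhydrogenase sits in the inner mitochondrial membrane. It uses the proton gradient to move hydride from NADH to NADP+ and so makes NADPH inside the mitochondrion. That NADPH keeps glutathione and thioredoxin reduced, which mitochondrial peroxidases draw on to remove hydrogen peroxide. The C57BL/6J allele lacks several exons, and mice of that substrain are known for lacking the working protein, which is why the gene is watched in metabolic studies that use B6 mice.

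*Nnt* lies on the minus strand of chromosome 13 in GRCm38, the build of the deposited data, and 2 overlapping Ensembl genes share its symbol there. ENSMUSG00000025453 spans chr13:119335448-119408997 and holds 5 annotated transcripts in GENCODE M21. ENSMUSG00000116207 spans chr13:119335528-119408952 and holds 1 transcript, Nnt-206, with 17 exons. Nnt-202 of the first gene also has 17 exons, whereas Nnt-201 has 15. The 2 exons of Nnt-206 that Nnt-201 lacks are exon 8 (chr13:119374629-119374774) and exon 9 (chr13:119372396-119372591), and they hold 342 bases together, a multiple of 3. GRCm38 is itself the C57BL/6J genome. Its transcripts therefore lack the deleted exons, and reads from those exons in other strains have no target among them. Of the annotated joins shown around exons 7 to 10, that of exon 6 to exon 7 is in Nnt-201, Nnt-202 and Nnt-206. The other joins set Nnt-201 apart from Nnt-202 and Nnt-206. The first 3 are in transcripts of both gene rows. That of exon 7 to exon 10 is not in Nnt-206, the only transcript of ENSMUSG00000116207. Each sequence gives 25 bases before and 25 after the join, 5′ to 3′ on the transcript, with the downstream exon in capitals. All come from the GENCODE M21 transcripts of GRCm38.
Exon 6 to exon 7, in Nnt-201, Nnt-202 and Nnt-206: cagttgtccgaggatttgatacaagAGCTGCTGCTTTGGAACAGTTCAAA
Exon 7 to exon 8, in Nnt-202 and Nnt-206: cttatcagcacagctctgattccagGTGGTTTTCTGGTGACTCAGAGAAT
Exon 9 to exon 10, in Nnt-202 and Nnt-206: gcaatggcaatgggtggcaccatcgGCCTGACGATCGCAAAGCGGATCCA
Exon 7 to exon 10, in Nnt-201: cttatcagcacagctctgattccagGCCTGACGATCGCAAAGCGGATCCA

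Nnt-202 of the one gene row and Nnt-206 of the other share the first 3 of these joins, so reads could be divided between the rows by probability. Levels are therefore given as the sum of both rows in TPM, a unit of transcript abundance scaled for transcript length and for library, and the rows are described apart afterwards.

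Libraries held 6269154 to 78562648 estimated counts with a median of 30233245, and *Nnt* drew 161 to 1903 of them, so no library was near 0. Adipocyte markers were high, with a median of 2104 TPM for *Adipoq* and no library at 0. Counts of 4 Y-linked genes went against the label in 3 libraries. The library labelled BXD34/TyJ female, at 221 TPM of Y-linked transcripts, and the one labelled BXD69/RwwJ female, at 264 TPM, lay in the range of the other males, 57.3 to 414 TPM. The library labelled NZW/LacJ male held 4.08 TPM, within the range of the other females, 2.51 to 15.4 TPM. These libraries were kept, and the family tests, the pairing of the sexes, the sex and BXD fits, the comparison with the BXD parents, the row shares and the likeness values are also given without them. No pair of libraries held identical values.

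*Nnt* transcripts were found in every strain, and over the whole panel the level varied continuously. Strain means ran from 5.37 TPM in BXD34/TyJ to 21.7 TPM in BXD6/TyJ, both known from a single library labelled female, and the median was 12.3 TPM. The BXD34/TyJ library was the shallowest of the panel, with 6269154 counts, its Y-linked counts went against its label, and mitochondrially encoded genes took 29.9% of its counts. Its place was particular to TPM. In TMM-scaled CPM, a scale of reads per library, it held 34.9 CPM and stood in place 58 of the 82 strains, and BXD60/RwwJ was lowest at 12.1 CPM. The widest gap between neighbours in the order of all 82 strains, 1.09 TPM, lay between PL/J at 17.3 TPM and BALB/cJ at 18.4 TPM. No gap set low strains apart from high ones in that order, which mixes families and means of 1 and 2 sexes. Within a family steps could be wider. No BXD/RwwJ mean lay between BXD70/RwwJ, a female library alone at 10.5 TPM, and BXD44/RwwJ at 12.9 TPM. No CXB mean lay between CXB11/HiAJ at 7.42 TPM and CXB6/ByJ at 16.7 TPM. The spread within a strain and sex was not measured, and neighbours in the order cannot be called different.

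**Figure D1:**
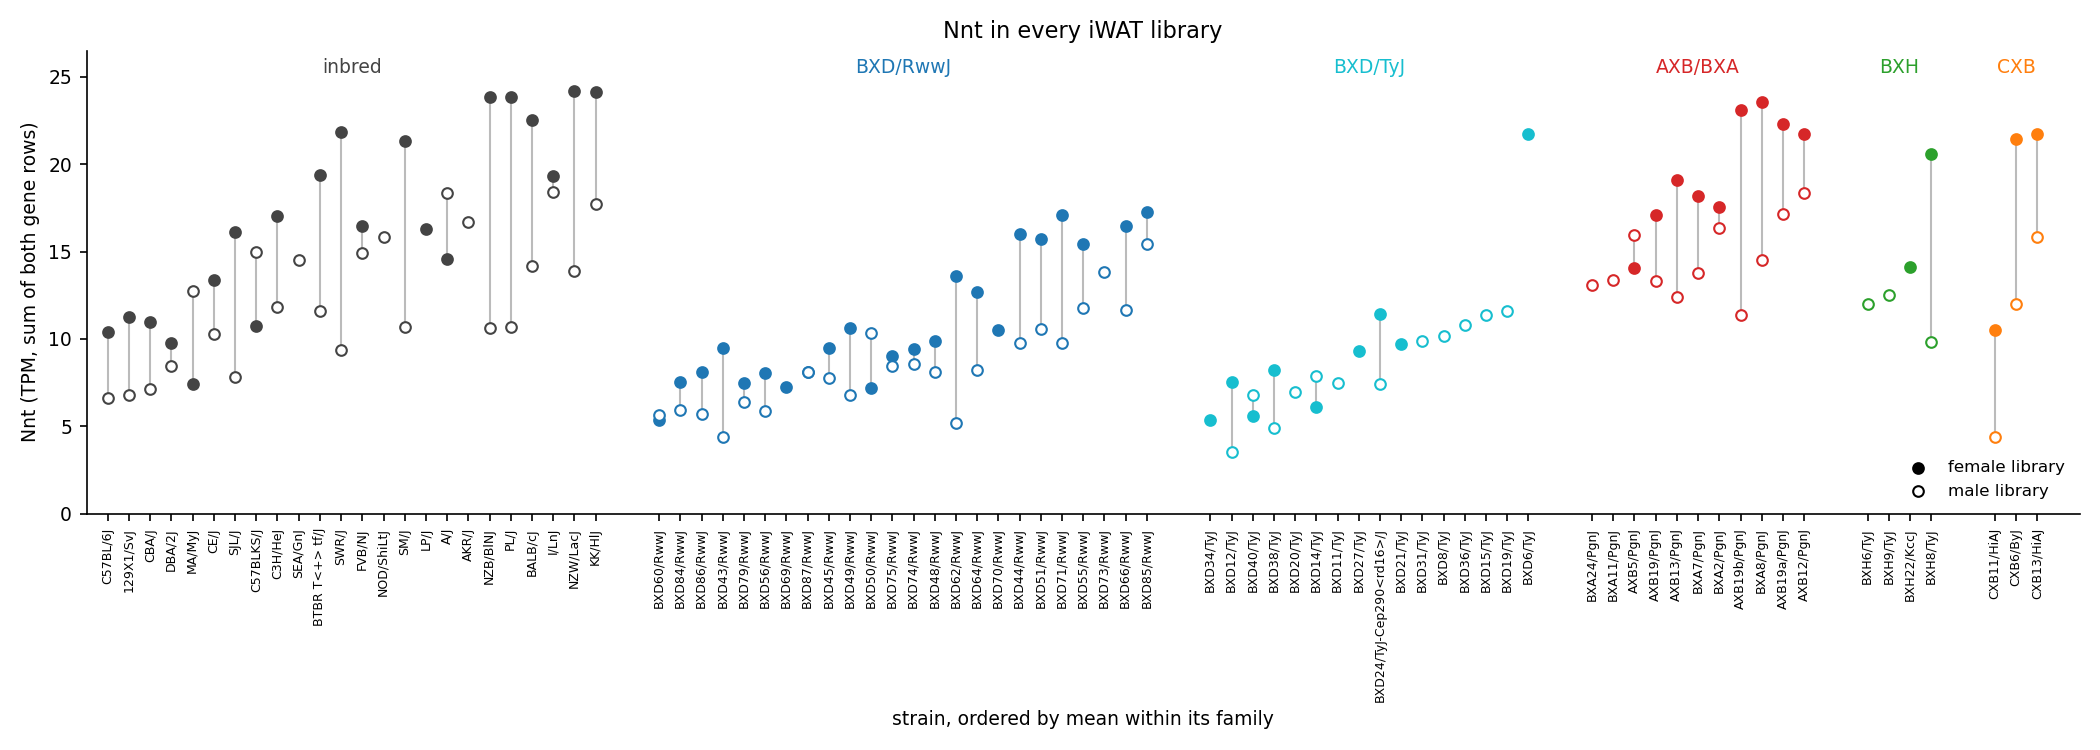
*Nnt* in TPM (sum of both gene rows) in every library, with strains on the x axis ordered by their mean within each family. Filled points are female and open points male libraries, joined by a line where a strain has both, and BXD libraries have medians of 9.46 TPM (female) and 8.11 TPM (male) while the lowest AXB/BXA library is at 11.4 TPM.

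C57BL/6J had the lowest strain mean of the 24 inbred strains. Its female library held 10.4 TPM and its male library 6.602 TPM. Transcripts were thus measured in C57BL/6J, and its level was not the lowest of the panel. In all, 16 strains had a lower mean, 15 of them BXD strains and the other one CXB11/HiAJ. Strains with libraries of 1 sex were set there against a mean of both sexes. BXD20/TyJ at 6.94 TPM and BXD11/TyJ at 7.48 TPM, among the 16, have a male library alone, and each was above the C57BL/6J male. BXD69/RwwJ, at 7.23 TPM in a library labelled female whose Y-linked counts went against the label, was above that male too. In TMM-scaled CPM 14 strains, all BXD, had a lower mean than C57BL/6J at 17.6 CPM, and 12 of them were among those 16. CXB11/HiAJ held 29.3 CPM on that scale, with mitochondrially encoded genes at 15.3% and 25.1% of the counts of its libraries. Among the females the C57BL/6J library stood in place 23 of 67 from the lowest, and among the males in place 11 of 74. C57BLKS/J, a related strain that is not known to carry the deletion, held 10.7 TPM in its female and 14.95 TPM in its male library.

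Of the other parents, DBA/2J was close to C57BL/6J, with 9.75 TPM in the female and 8.44 TPM in the male library, inside the range of the C57BL/6J pair. C3H/HeJ held 17.1 TPM in the female and 11.8 TPM in the male. A/J held 14.6 TPM in the female and 18.4 TPM in the male. BALB/cJ held 22.6 TPM in the female and 14.2 TPM in the male. The order of the parental means was therefore C57BL/6J, DBA/2J, C3H/HeJ, A/J and BALB/cJ, at 8.50, 9.09, 14.4, 16.5 and 18.4 TPM. Each library of the last 3 parents was above both libraries of C57BL/6J and DBA/2J, while the pairs of libraries overlapped within those 3 and within the first 2.

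BXD strains had the low levels of the panel. The 24 BXD/RwwJ strain means ran from 5.51 TPM in BXD60/RwwJ to 16.4 TPM in BXD85/RwwJ, with a median of 8.87 TPM. The 16 BXD/TyJ means had a median of 9.37 TPM, and 15 of them lay between 5.37 and 11.6 TPM, with BXD6/TyJ far above at 21.7 TPM. The 22 reference inbred strains ran from 9.02 TPM in 129X1/SvJ to 20.9 TPM in KK/HlJ, with a median of 15.8 TPM. The ranges overlapped, and 21 of the 40 BXD means were below the lowest reference strain. Among these 21, BXD20/TyJ and BXD11/TyJ have a male library alone, at 6.94 and 7.48 TPM, against 6.77 TPM in the 129X1/SvJ male.

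Each family was set against the reference inbred strains by permuting strain labels on the strain means of log2(TPM + 1), two-sided, with Benjamini-Hochberg adjustment over the 6 family comparisons made. BXD/RwwJ strains were lower by 0.56 ± 0.11 (SE of the difference, n = 24 and 22 strains; permutation test, adjusted p = 0.00012). BXD/TyJ strains were lower by 0.65 ± 0.14 (n = 16 and 22; permutation test, adjusted p = 0.00012). Both raw p values were 4e-05, where 2e-05 is the smallest that 100000 resamples can give. The differences held within each sex. In female libraries they were -0.64 and -0.88, and in male libraries -0.51 and -0.56, for BXD/RwwJ and BXD/TyJ. Without BXD34/TyJ female, BXD69/RwwJ female and NZW/LacJ male, both calls remained past the threshold.

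DBA/2J, which stands among the reference strains, had a level near that of C57BL/6J, so the BXD family descends from a pair of parents that were both low. The recombinant strains spread beyond that pair. Among the 32 female BXD libraries, 19 were below both parental females, 1 was between them and 12 were above both, and without BXD34/TyJ and BXD69/RwwJ 17 of 30 were below both. Among the 34 male BXD libraries, 9 were below both parental males, 10 between and 15 above. The highest BXD/RwwJ female held 17.3 TPM against 10.4 TPM in the higher parent. The 2 BXD sets did not differ by the test (BXD/RwwJ minus BXD/TyJ, 0.08 ± 0.14; permutation test, adjusted p = 0.581). The sign of that small difference turned with the scale, as it was -0.21 on TMM-scaled log2 CPM.

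AXB and BXA strains, which have A/J as the other parent, did not differ from the reference strains by the test. Their 11 means ran from 13.1 TPM in BXA24/PgnJ to 20.05 TPM in AXB12/PgnJ, a range above every BXD/TyJ mean except that of BXD6/TyJ. All 9 female libraries, 14.1 to 23.6 TPM, were above the C57BL/6J female, and 8 of them were above the A/J female as well. All 11 male libraries, 11.4 to 18.3 TPM, lay between the C57BL/6J male and the A/J male. Against the reference strains the difference was 0.17 ± 0.09 (n = 11 and 22; permutation test, adjusted p = 0.262). AXB19/PgnJ, AXB19a/PgnJ and AXB19b/PgnJ, whose names mark them as sublines, held strain means of 15.2, 19.7 and 17.2 TPM.

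The BXH and CXB families were small. The 4 BXH means were 11.98 TPM in BXH6/TyJ, 12.5 TPM in BXH9/TyJ, 14.1 TPM in BXH22/KccJ and 15.2 TPM in BXH8/TyJ. They differed from the reference strains by -0.10 ± 0.09 (n = 4 and 22; exact permutation test, adjusted p = 0.581), and only BXH8/TyJ has libraries of both sexes. The 3 CXB strains were far apart. CXB11/HiAJ held 10.5 TPM in the female and 4.35 TPM in the male, each the lowest of its family. CXB6/ByJ held 21.4 and 12.01 TPM, and CXB13/HiAJ 21.8 and 15.9 TPM, in female and male. The family differed from the reference strains by -0.14 ± 0.42 (n = 3 and 22; exact permutation test, adjusted p = 0.581), and without CXB11/HiAJ the difference was 0.26. On TMM-scaled log2 CPM, with all 3 strains, it was 0.16. The smallest p that this comparison can give is 0.000435.

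Markers of other cell types also varied between the strains compared. The summed level of 6 lymphocyte markers had a median of 17.7 TPM over 66 BXD libraries (4.87 to 1056 TPM) and 67.1 TPM over 40 reference libraries (5.74 to 828 TPM). Adipocyte markers summed to medians of 36659 and 35634 TPM in the same libraries. The summed level of 3 brown or beige adipocyte markers had medians of 146 and 273 TPM. The part of cell composition in the family differences was not tested. In bulk tissue, fewer cells of a type and less RNA per cell cannot be told apart.

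The family difference passed the test on one gene row and not on the other, and the difference between the rows was not tested. ENSMUSG00000025453, which holds Nnt-201 and Nnt-202, had a median strain mean of 3.68 TPM in the 40 BXD strains (1.200 to 8.33 TPM) and 4.64 TPM in the 22 reference strains (0.933 to 7.61 TPM). ENSMUSG00000116207, which holds Nnt-206, had a median of 5.50 TPM in BXD strains (1.50 to 13.4 TPM) and 10.6 TPM in reference strains (4.58 to 14.1 TPM). On ENSMUSG00000116207 alone, a choice made after seeing the data, the differences from the reference strains were -0.76 for BXD/RwwJ (permutation test, adjusted p = 0.00024) and -0.95 for BXD/TyJ (permutation test, adjusted p = 0.00012). On ENSMUSG00000025453 alone they were -0.19 and -0.09, and neither passed (permutation tests, adjusted p = 0.608 and 0.714).

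The share of the summed TPM on ENSMUSG00000116207 described the same pattern. In C57BL/6J it was 44.1% in the female and 39.6% in the male library. Over the reference strains the share per strain ran from 51.95% in DBA/2J to 89.3% in 129X1/SvJ, with a median of 70.3%. Of the 40 BXD strains, 15 had a share below the lowest reference strain. Of the 11 AXB and BXA strains, BXA24/PgnJ alone was below it, at 51.7%, and of the 4 BXH strains BXH6/TyJ alone, at 45.9%. None of the 3 CXB strains was below it, although CXB11/HiAJ was low in TPM.

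A low share and a low level went together in BXD strains, with a Spearman's rho of 0.70 between summed TPM and share over the 40 strain means. Over the 22 reference strains that rho was -0.27. Without the 3 libraries whose Y-linked counts go against the label the values were 0.67 over 38 BXD strains and -0.15 over the reference strains, and 14 of the 38 had a share below the lowest reference strain. The sum and the share are built from the same 2 values, so these are descriptions. The lowest share was 8.52% in the BXD38/TyJ male, against 31.4% in the female of that strain. The DBA/2J libraries were further apart still, at 29.7% in the female and 74.2% in the male, so the split of reads between the rows was not stable within a strain. Row levels should be read with that limit, because Nnt-202 and Nnt-206 differ in the length of their ends alone and a library holds at most 1903 reads of the gene to divide between them.

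**Figure D2:**
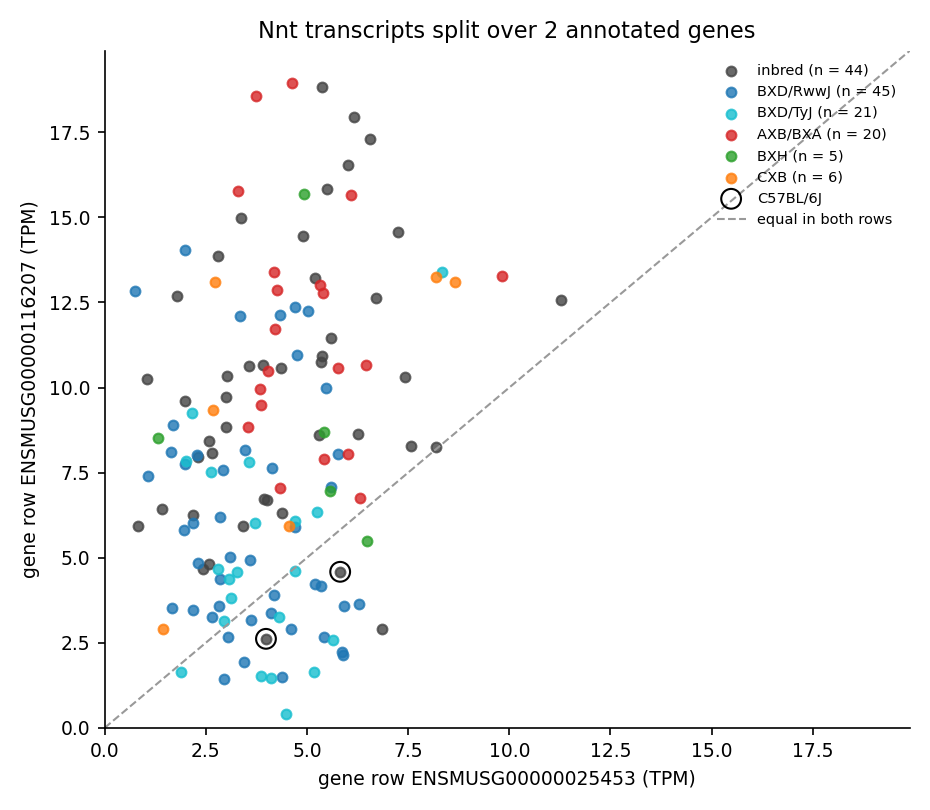
TPM of the 2 gene rows with the symbol *Nnt* in every library, ENSMUSG00000025453 on the x axis and ENSMUSG00000116207 on the y axis, coloured by family, with a dashed line where both are equal. Both C57BL/6J libraries (circled) lie under the line, as do many BXD libraries, while most reference inbred and AXB/BXA libraries lie above it.

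Females had the higher *Nnt* level in most strains. Over the 59 strains with both sexes, female libraries ran from 5.38 to 24.2 TPM with a median of 14.6 TPM, and male libraries from 3.52 to 18.4 TPM with a median of 10.3 TPM. The ranges overlapped, but within strains the female was higher in 50 of 59, with a median female to male ratio of 1.42 in TPM. In TMM-scaled CPM, where female libraries had 31.9 ± 11.1 CPM on average and male libraries 24.7 ± 9.21 CPM (SD, n = 59), the female was higher in 55 of 59. In the model ~ Strain + Sex fitted to all genes, the log2FC (female vs. male) of *Nnt* was 0.40 ± 0.03 (SE; edgeR quasi-likelihood test, adjusted p = 2.87e-15). A call in this fit is common, since 58.1% of the 16764 genes tested passed, 4758 of them higher and 4988 lower in females. With library totals in place of TMM the split was 7409 higher and 2774 lower, and with limma on log2(TPM + 1) it was 5324 and 2868. Of these genes, 2392 had a larger log2FC than *Nnt*. The median log2FC of all genes was 0.01, and it moved to 0.12 when library totals replaced TMM, with *Nnt* then at 0.51.

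The largest ratio of female to male was in BXD62/RwwJ, at 13.6 TPM in the female and 5.19 TPM in the male. The lowest ratio was in MA/MyJ, at 7.40 TPM in the female and 12.7 TPM in the male. The males of C57BLKS/J and A/J were also above the females. The sex difference in log2(TPM + 1) was 0.36 ± 0.40 (SD) over 26 BXD strains, with the female higher in 21, and 0.49 ± 0.46 over 33 other strains, with the female higher in 29. Those differ by -0.13 (permutation test over strains, p = 0.271).

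Cell type markers moved with sex in the same libraries, in a fit that called 28.4% of all genes higher and 29.8% lower in females. All 9 mammary epithelial markers were higher in females, where their summed level had a median of 628 TPM (98.1 to 4572 TPM) against 3.47 TPM in males (0.380 to 554 TPM). All 5 adipocyte markers were lower in females, summing to medians of 28400 TPM (6514 to 61550 TPM) and 40803 TPM (12048 to 62944 TPM). All 4 macrophage markers were lower in females as well (3 with library totals or with limma on TPM), with medians of 116.2 and 160.5 TPM. Lymphocyte markers had medians of 186 TPM in females and 16.9 TPM in males, and none of the 6 passed the test. Mitochondrially encoded genes took a median of 8.51% of the counts in females and 8.79% in males. The part of these cell types in the sex difference of *Nnt* was not tested.

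Both libraries of a strain agreed more than libraries of different strains. The mean absolute difference in log2(TPM + 1) was 0.52 over the 59 pairs, against 0.72 on average over random pairings of the male with the female libraries (two-sided permutation test, p = 2e-05, the lowest value possible with 100000 resamples). Without NZW/LacJ it was 0.52 as well, with the same p by permutation. Pearson's r between the sexes was 0.69 and Spearman's rho 0.68 (59 strains; permutation tests, p = 1e-05 for each, adjusted over 3 sets of strains p = 3e-05). Without the 2 strains farthest from the female median, BXD60/RwwJ and BXD40/TyJ, r was 0.68.

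Since families differ in level, the agreement was also taken within sets of strains. Over the 26 BXD strains the mean absolute difference was 0.44 against 0.57 for other pairings (permutation test, p = 0.0116), with r = 0.60 (adjusted p = 0.00199 by permutation) and rho = 0.55 (adjusted p = 0.00571 by permutation). Without the 2 farthest strains r was 0.51. Over the 33 other strains the difference was 0.59 against 0.64 (permutation test, p = 0.156), with r = 0.46 (adjusted p = 0.00666 by permutation) and rho = 0.32 (adjusted p = 0.0713 by permutation). So in strains outside the BXD family the closeness of pairs did not pass, and of the 2 correlations r did and rho did not. Without MA/MyJ and DBA/2J, r there was 0.51. Over the 9 AXB and BXA pairs the mean absolute difference was 0.42 against 0.41 (exact permutation test, p = 0.889). The strain means of that family span little, 13.1 to 20.05 TPM. Over the 20 inbred pairs, from a set whose strain means span 8.50 to 20.9 TPM, it was 0.61 against 0.65. That did not pass either (permutation test, p = 0.508). The mean absolute difference keeps the mean shift between the sexes, which no pairing changes. Female minus male was 0.38 on average in the AXB and BXA pairs, with the female higher in 8 of 9. In the inbred pairs it was 0.46 (17 of 20) and in the 33 other strains 0.49 (29 of 33). Since that shift makes up most of the measure there, these results cannot show that pairs were no closer.

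**Figure D3:**
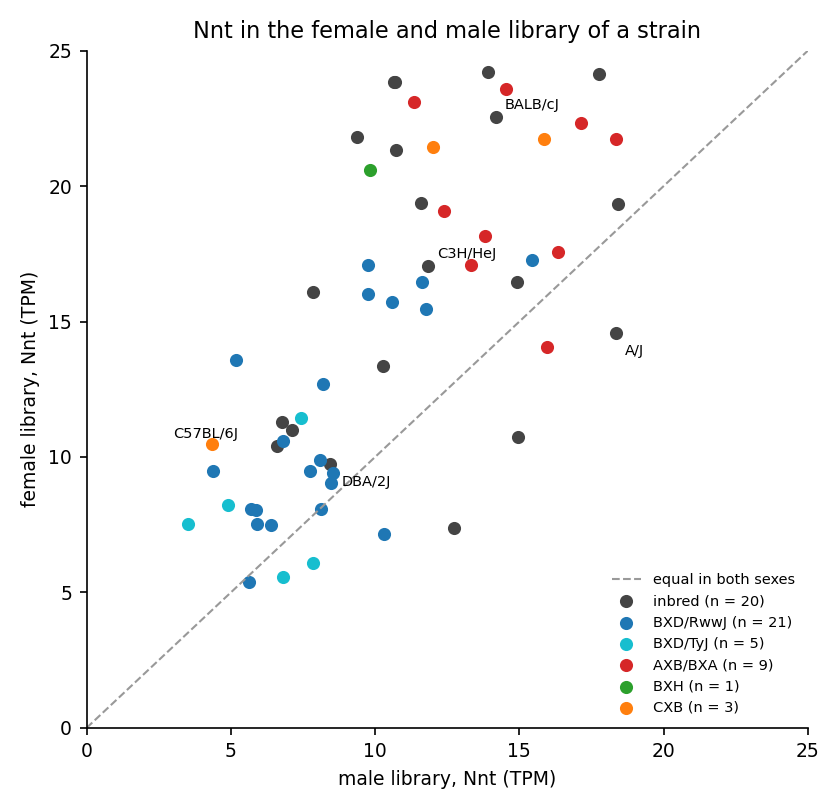
*Nnt* in TPM in the male (x axis) and female (y axis) library of each of 59 strains, coloured by family, with a dashed line where the sexes are equal. The female library was higher in 50 strains, and strains low in one sex tended to be low in the other (Pearson's r = 0.69 on log2(TPM + 1)).

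In all-gene fits within each sex, the BXD sets did not differ in *Nnt*. The log2FC (BXD/RwwJ vs. BXD/TyJ) was -0.30 ± 0.18 in females (SE, n = 23 and 9 libraries; edgeR, adjusted p = 0.288) and -0.11 ± 0.14 in males (n = 22 and 12; edgeR, adjusted p = 0.673). In females 16.8% and in males 5.74% of genes passed in these fits. In log2(TPM + 1), tested with limma, the signs turned to 0.24 and 0.05, neither of them past the threshold, while the median of all genes moved to 0.43 in females and 0.15 in males. Relative to that median, *Nnt* in females stood at -0.28 with TMM and -0.19 on TPM. Without the libraries labelled BXD34/TyJ female and BXD69/RwwJ female the log2FC in females was -0.15.

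Genes of NADPH, peroxide and NAD metabolism were read from 4 lists, all of whose 38 members were tested. Of 10 other sources of mitochondrial NADPH, 2 were higher and 2 lower in females, where 28.4% and 29.8% of all genes were called in those directions. *Idh2*, the mitochondrial NADP+-dependent isocitrate dehydrogenase and the main parallel source, was lower (log2FC -0.59 ± 0.06; edgeR, adjusted p = 1.37e-12). *Glud1*, glutamate dehydrogenase, was lower at -0.38 ± 0.04. *Me3*, a mitochondrial malic enzyme, was higher at 0.37 ± 0.09, as was *Aldh1l2*, a mitochondrial folate enzyme, at 0.22 ± 0.09. The median log2FC of the list was -0.05, against 0.01 for all genes. *Nnt* and *Idh2* thus had opposite signs between the sexes.

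Of 10 genes listed for mitochondrial peroxide removal, which consumes NADPH, 1 was higher and 5 were lower in females, with a median log2FC of -0.16. Of all genes 28.4% were called higher and 29.8% lower. *Sod2* and *Glrx5* are on the list, although neither removes peroxide with NADPH, and both were among the 5. *Glrx2*, a mitochondrial glutaredoxin, was higher at 0.08 ± 0.02. *Sod2*, the superoxide dismutase that makes peroxide from superoxide, was lower at -0.33 ± 0.07, and *Gpx1*, a glutathione peroxidase, at -0.31 ± 0.07. *Prdx5*, a peroxiredoxin, *Glrx5*, which serves iron-sulphur cluster assembly, and *Txnrd2*, the mitochondrial thioredoxin reductase, fell by 0.30, 0.26 and 0.16 on the log2 scale. *Gsr*, glutathione reductase, stood at 0.00071 ± 0.042 and did not pass.

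Of 10 cytosolic sources and users of NADPH, 1 was higher and 6 were lower in females, with a median of -0.20. The shares of all genes were 28.4% higher and 29.8% lower. The largest was *H6pd*, hexose-6-phosphate dehydrogenase of the endoplasmic reticulum, at -0.69 ± 0.08. *Aldh1l1* stood at -0.47 ± 0.12, *Idh1* at -0.29 ± 0.08, *Nadk* at -0.24 ± 0.04, *Mthfd1* at -0.22 ± 0.03 and *Txnrd1* at -0.18 ± 0.03, each past the threshold. *Pgls*, of the pentose phosphate pathway, was higher at 0.15 ± 0.05. *G6pdx*, which opens that pathway, stood at -0.02 ± 0.09, and *Me1*, the cytosolic malic enzyme, at 0.26 ± 0.17, and neither passed.

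Of 8 genes of NAD supply and mitochondrial NAD, 2 were higher and 2 lower in females, with a median of -0.07. Beside them stand the same shares of all genes, 28.4% higher and 29.8% lower. *Nnmt*, which methylates nicotinamide, stood at -0.82 ± 0.14 and *Nampt*, the enzyme that recycles it into NAD, at -0.31 ± 0.05. *Naprt*, which uses nicotinic acid, was higher at 0.22 ± 0.07 and *Sirt5*, a mitochondrial deacylase, at 0.20 ± 0.04. Without NZW/LacJ, where 60.7% of all genes were called, 29.9% higher and 30.8% lower, 1 more gene was lower in the list of mitochondrial NADPH sources (3 in all) and 1 more in that of peroxide removal (6 in all), and the other counts stayed as they were. With library totals in place of TMM the counts higher and lower were 3 and 2 for mitochondrial NADPH sources, 3 and 4 for peroxide removal, 2 and 6 for the cytosolic list and 2 and 2 for NAD supply. On that scale 44.2% of all genes were called higher and 16.5% lower. *Txnrd2* was then not called, and no listed gene called with TMM had the other sign.

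Between the BXD sets *Nnt* did not pass in either sex, and in females the number of listed genes called depended on 2 libraries and on the scaling. With TMM and all libraries, 7 of the 10 genes listed for peroxide removal were lower in BXD/RwwJ females and none was higher. *Sod2* and *Glrx5* were among the 7. Of all genes 16.8% were called, 14.4% lower and 2.4% higher. Without the libraries labelled BXD34/TyJ female and BXD69/RwwJ female 2 were lower, where 3.51% of all genes were called, 2.89% lower and 0.625% higher. With library totals in place of TMM none of the 10 was called, where 1347 genes were higher and 1243 lower and the median log2FC of all genes was 0.19. With limma on log2(TPM + 1) 1 was higher and none lower, where 7261 genes were higher and 53 lower and that median was 0.43. *Txn2*, the mitochondrial thioredoxin, and *Glrx5* were the 2 called with TMM in both sets of libraries. *Txn2* stood at -0.55 ± 0.13 and, without the 2 libraries, at -0.56 ± 0.14 (edgeR, adjusted p = 0.00304 and 0.0224), but at -0.30 with library totals and 0.05 on TPM, neither past the threshold (adjusted p = 0.0668 by edgeR and 0.806 by limma). Of the 5 genes that no longer passed without the 2 libraries, *Gpx4* stood at -0.64 and then -0.63, *Prdx3* at -0.54 and then -0.60, *Sod2* at -0.58 and then -0.65 and *Prdx5* at -0.49 and then -0.48, while *Glrx2* moved from -1.06 to -0.10. The median of the list was -0.54 with all libraries and -0.57 without the 2. It was -0.30 with library totals and 0.07 on TPM, scales that moved all genes upward. Set against that median of all genes, the list stood at -0.53 with TMM, -0.59 without the 2 libraries, -0.49 with library totals and -0.36 on TPM.

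Of the other lists, *Me3*, *Me1*, *Pgls*, *Sirt5*, *Sirt3*, a mitochondrial deacetylase, and *Nmnat1*, which makes NAD in the nucleus, were lower in BXD/RwwJ females with TMM and all libraries. Without the 2 libraries *Nmnat1* and *Sirt3* still passed, at -0.48 ± 0.13 and -0.58 ± 0.16, while *Me3* moved from -2.28 ± 0.44 to -0.34 ± 0.23. With library totals *Nmnat1* and *Me3* passed, and with limma on TPM none of the 6 was lower. In males 1 of the 38 genes was called with TMM, where 1.91% of all genes were called higher and 3.82% lower in BXD/RwwJ. It was *Glrx5*, at -0.57 ± 0.13, which stood at -0.48 with library totals (edgeR, adjusted p = 0.0212) and at -0.34 on TPM (limma, adjusted p = 0.0715). The split of all calls in males moved from 315 higher and 629 lower to 471 and 324 with library totals and to 1363 and 90 with limma on TPM.

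Tissue makeup also varied among the females of the BXD sets. The summed level of brown or beige adipocyte markers had medians of 126.9 TPM in BXD/RwwJ and 464 TPM in BXD/TyJ females. With TMM 2 of these 3 markers were lower and 2 of 5 skeletal muscle markers higher in BXD/RwwJ. Without the 2 libraries none of them passed, while the median log2FC of the former list moved from -1.94 to -2.05. The median log2FC of the skeletal muscle list moved from 6.21 to 6.59. The summed level of skeletal muscle markers had close medians, 21.91 TPM in BXD/RwwJ and 22.05 TPM in BXD/TyJ females. Its ranges were 4.03 to 14535 TPM and 3.25 to 125.1 TPM. The log2FC of that list therefore does not describe a difference between typical libraries of the sets. Mitochondrially encoded genes took a median of 9.20% and 12.7% of counts. The part of that makeup was not tested.

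**Figure D4:**
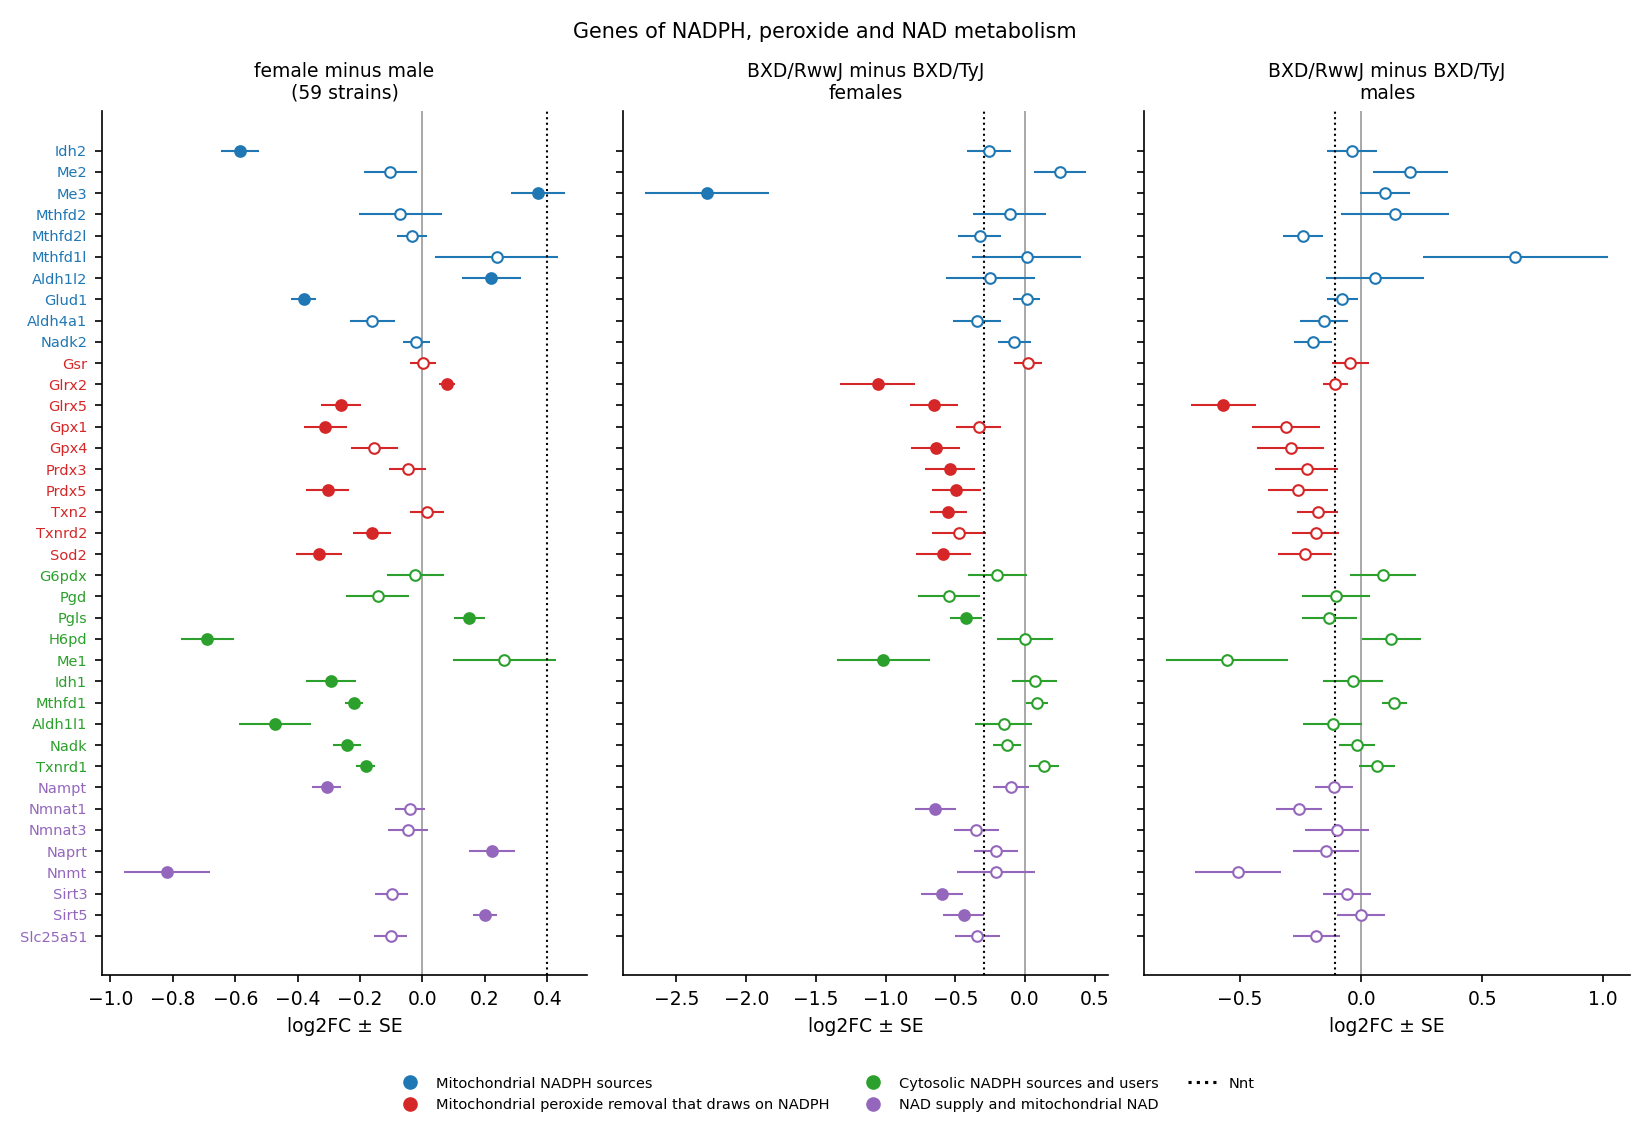
Log2FC ± SE of the 38 listed genes (y axis, coloured by list) in the sex fit over 59 strains and in the fits of BXD/RwwJ against BXD/TyJ in females and in males, from edgeR. Counts were scaled by TMM. Filled points passed an adjusted p of 0.05, and the dotted line is *Nnt*, at 0.40, -0.30 and -0.11.

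Likeness to *Nnt* across strains was taken as Spearman's rho of log2(TPM + 1) over the 82 strain means for the other 16763 genes tested. Strain means share families, and rho over all genes was not centred at 0 (median 0.19, quartiles 0.06 and 0.29). The 10 genes with the largest rho all lay on other chromosomes. *Fndc10* was first with 0.68, then *Hyal1*, a lysosomal hyaluronidase, with 0.67, *Smyd3*, a lysine methyltransferase, with 0.63, *Nudcd3* with 0.62 and *Dcp1b*, of the mRNA decapping complex, with 0.61. *Cln6*, *Spcs2*, *Gbp2b*, *2810004N23Rik* and *Zfyve27* followed, with 0.60 to 0.57.

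The 10 genes were chosen for their rho over all strains, so values within sets of strains are descriptions. Over the 40 BXD strains the rho of *Fndc10* was 0.27 and that of *Hyal1* 0.25, and over the 42 other strains 0.51 and 0.42. Without the 3 libraries whose Y-linked counts go against the label, the rho of the 10 genes over 80 strains ran from 0.55 to 0.67, and 6 of them were still among the first 10. Among the 10 genes *Spcs2*, a signal peptidase subunit, had the highest rho within BXD strains, 0.50. Between the sexes *Fndc10* had a log2FC of 0.40, as *Nnt* had, and *Cln6*, *Smyd3*, *2810004N23Rik* and *Spcs2* were also higher in females, while *Hyal1* was lower, at -0.20. Of the listed pathway genes *Gsr* had the highest rho with *Nnt* over all strains, 0.40, and *Naprt* followed with 0.39. Within BXD strains *Nampt* had 0.54.

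Genes near *Nnt* did not follow it closely. Of 55 other genes annotated within 1 Mb, 14 were tested. Their rho over the 82 strains ran from -0.14 to 0.43 with a median of 0.20, near the median of all genes, and from -0.15 to 0.43 without the 3 libraries. *Mrps30*, a mitochondrial ribosomal protein at chr13:118378381-118387252, had the highest, 0.43, and 0.41 within BXD strains. *4833420G17Rik* at chr13:119462768-119486120 had 0.36 over all strains and -0.07 within BXD. *Paip1*, a translation factor and the nearest tested gene upstream at chr13:119428601-119458218, had -0.05. *Hmgcs1*, of the cholesterol pathway, had the lowest, -0.14.

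Between the sexes 3 of the 14 neighbours were higher in females and 5 lower, where 28.4% and 29.8% of all genes were called. With library totals in place of TMM 5 were higher and 2 lower, where 44.2% and 16.5% of all genes were called. *Hmgcs1* was lower at -0.80 ± 0.10 and *Nim1k*, a protein kinase, at -0.56 ± 0.08, while *4833420G17Rik* was higher at 0.28 ± 0.06. Between the BXD sets *Paip1* was lower in BXD/RwwJ in both sexes, at -0.70 ± 0.20 in females and -0.31 ± 0.08 in males (edgeR, adjusted p = 0.0116 and 0.0279), and *Ccl28*, a chemokine, was lower in females. In these fits 14.4% of all genes were called lower and 2.4% higher in females, and 3.82% lower and 1.91% higher in males. Without the libraries labelled BXD34/TyJ female and BXD69/RwwJ female, *Paip1* stood at -0.22 ± 0.11 and *Ccl28* at -1.03 ± 0.38 in females, and neither passed (edgeR, adjusted p = 0.288 and 0.111). With library totals *Paip1* passed in neither sex (-0.33 in females and -0.23 in males; edgeR, adjusted p = 0.152 and 0.0721). On TPM it stood at 0.05 in females, which is -0.38 relative to the median of all genes, against -0.69 with TMM. *Nnt* passed in neither sex.

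**Figure D5:**
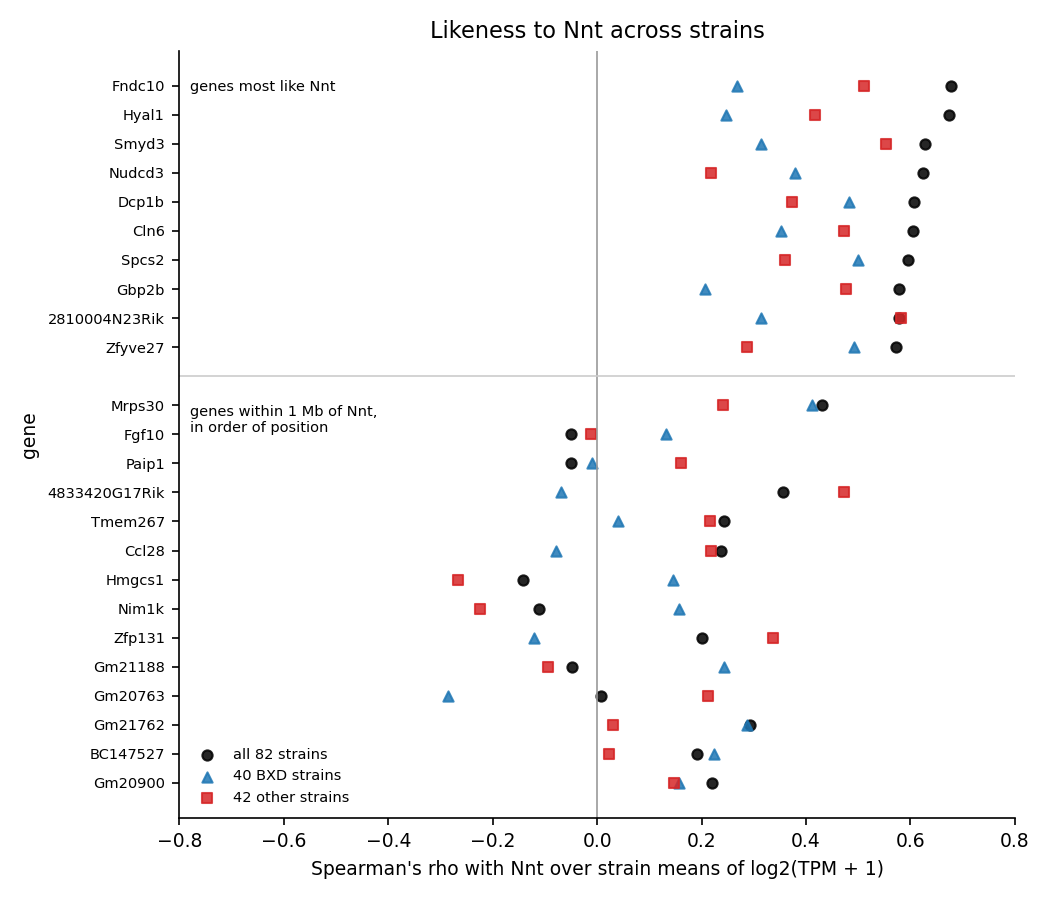
Spearman's rho with *Nnt* (x axis) over strain means of log2(TPM + 1), for the 10 most like genes (upper block) and the 14 tested genes within 1 Mb (lower block, in order of position), over all 82 strains (circles), 40 BXD strains (triangles) and 42 other strains (squares). The upper genes lie between 0.57 and 0.68 over all strains and between 0.21 and 0.50 over BXD strains, and the neighbours between -0.14 and 0.43.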

How the data were processed

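RNA-seq libraries were stranded and paired-end. The authors pseudoaligned reads to the GRCm38/mm10 transcripts of Ensembl release 97 with kallisto 0.46.1 (submitters' processing notes) and used tximport for gene sums. The deposited estimated counts are not normalized between libraries, and the deposited TPM values were scaled by the authors to a constant sum, so they carry no depth. Of 36558 gene rows, 35856 matched GENCODE M21. Both *Nnt* rows were summed.

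For all-gene fits, estimated counts were rounded, filtered with filterByExpr and scaled by TMM, and tested with edgeR 4.0.16 in R 4.3.3 by quasi-likelihood, in ~ Strain + Sex as in the study's methods, or by BXD set within sex. The SE is the log2FC over the root of F. Adjusted p-values are Benjamini-Hochberg over all genes. Family tests permuted strain labels on strain means of log2(TPM + 1). They used scipy 1.17.1, or a full enumeration where a group had under 10 strains. Pairing tests permuted the male libraries against the female ones on library values of log2(TPM + 1). They were exact for sets of under 10 strains. On simulated counts, 198 of 198 genes changed by 1 on the log2 scale were called in the sex comparison of 16723 genes, with 12 false calls. In the BXD comparisons 190 of 194 were called in females and 197 of 197 in males, with 6 and 3 false calls. The simulation had no strain effects and the same dispersion for all genes. It therefore does not show how well smaller changes, such as that of *Nnt*, are called in these data. DESeq2 1.42.0 and limma 3.58.1 were alternatives.

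Genes named are *Nnt*, tested genes within 1 Mb, the 10 most like genes, and listed pathway genes past the test with the extremes of each list. *Nnt* and the lists were chosen with earlier results of these data known. Each library carries 1 mouse number in the labels. The study describes several samples per sex and strain, and whether a library pools mice is not given in the sources used here. P-values of the family tests and of the BXD fits rest on the spread between strains. In the sex fit, where strain levels are fitted, they rest on how the sex difference varied from strain to strain. In the pairing tests they rest on the closeness of both libraries of a strain. Precision at the median of 806 *Nnt* counts is limited by counting error and by the split of reads between rows. Intervals and floors were not needed, as no library was near 0.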

Additional observations from a re-analysis of the deposited data

Results flagged for a closer look

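The female BXD6/TyJ library held 21.7 TPM of *Nnt*, far above the other 8 female BXD/TyJ libraries, which ran from 5.37 to 11.4 TPM. The gap to the nearest was 0.629 of the whole range, over Dixon's 95% critical value for 9 samples. Chance marks about 1 group in 20 in this way. The strain has no male library here, so the level has no second library to set beside it. Its share on ENSMUSG00000116207 was 61.6%, and mitochondrially encoded genes took 5.74% of its counts. Without BXD6/TyJ, the difference of BXD/TyJ from the reference inbred strains was -0.73 in place of -0.65 on log2(TPM + 1).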

How the results depend on the processing

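In 86 of the alternatives computed, the result kept its direction and its side of the threshold. The sex difference stayed called in all 13 (log2FC 0.33 to 0.53). Without the strain term (no replicate block, so without the pairing of sexes by strain) it was 0.39 with an adjusted p of 0.000513 by edgeR. Lowered calls were those of BXD/RwwJ and BXD/TyJ on ENSMUSG00000025453 alone (-0.19 and -0.087) and the agreement of the sexes in strains other than BXD (0.59, permutation p = 0.156). Direction turned only in comparisons that no setting called. For CXB it turned on log2 CPM (0.16), in females (0.024), for medians (0.058) and on ENSMUSG00000025453 (0.00137), with leave-one-out values of -0.40 to 0.26, the last without CXB11/HiAJ. For BXH it turned in females (0.027) and on ENSMUSG00000025453 (0.21), and leave-one-out values ran from -0.14 to -0.06. For BXD/RwwJ against BXD/TyJ it turned on log2 CPM (-0.21), for medians (-0.086) and on ENSMUSG00000025453 (-0.11). In the all-gene fits of these sets it turned under limma with pseudocounts of 1 and 0.1 (0.24 and 0.27 in females, 0.050 and 0.057 in males) and in males on ENSMUSG00000116207 (0.081). The causes were not tested.

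Single rows, sex centring, strain means in CPM, leaving out BXD6/TyJ, and shares, likeness and list counts without doubted libraries or under other scalings were chosen after seeing the data. For BXD/RwwJ against BXD/TyJ in females, calls numbered 2500 lower and 417 higher, and 612 in all, 503 of them lower, without BXD34/TyJ and BXD69/RwwJ, 1163 lower and 435 higher with DESeq2, and 4419 and 385 with no filter. Between the sexes they were 3338 and 3103 in BXD strains alone. Strain and sex have 1 library each, reads of exons absent from the C57BL/6J reference were not counted, and genotypes at the deletion were not used here.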
